A study of Mus musculus with 3 samples.

Results

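The genes described here are 9 components of transforming growth factor beta (TGF-beta) and bone morphogenetic protein (BMP) signalling, namely the ligand genes Tgfb1, Tgfb2 and Bmp7, the receptor genes Tgfbr1, Tgfbr2 and Tgfbr3, the intracellular transducer Smad3, its inhibitor Smad7 and the matrix-associated target gene Ccn2. They were chosen by name, and every probe set annotated to exactly 1 of these symbols was taken, which gave 23 of the 45101 probe sets on the array. Kidney RNA came from male C57BL/6J mice of 16 weeks. The cardio-renal syndrome group (2 arrays) had the abdominal aorta constricted below the branching of the renal arteries and 1 kidney taken out 2 weeks later. The uninephrectomy alone group (1 array) lost 1 kidney as well. In both groups the remaining kidney was collected 6 weeks after that operation. Both groups therefore share the loss of a kidney, no array holds tissue from mice with both kidneys, and the sample labels do not say whether the mouse on the uninephrectomy array had a sham banding or whether RNA of several mice was pooled. The comparison asks what aortic banding, on top of uninephrectomy, does to kidney expression.

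TGF-beta ligands are secreted in a latent form held by the matrix. Once released, they bind TGF-beta receptor type II, the product of Tgfbr2, which activates the type I receptor encoded by Tgfbr1, and that receptor phosphorylates the transcription factors SMAD2 and SMAD3, which act together with SMAD4. The Tgfbr3 product, betaglycan, is a co-receptor that presents ligand, and SMAD7 is made in response to the signal and blocks the receptor. BMP7, abundant in tubular epithelium of the adult kidney, signals through other type I receptors to SMAD1 and SMAD5 and is known for opposing TGF-beta responses in renal disease models. CCN2, also called connective tissue growth factor, is a secreted protein widely used as a readout of TGF-beta in fibrosis.

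Values are MAS5 signals on a linear scale, and differences are on the log2 scale after an offset of 28.8 was added, given as cardio-renal minus uninephrectomy alone. The trimmed mean signal was 500 on each array and the median signals were 105.9 and 102 on cardio-renal arrays 1 and 2 and 100.1 on the uninephrectomy array. Array 1 stood further from the other arrays than they did from each other: the SD of log2 differences over the 22519 probe sets that passed the filter on low signals was 0.325 between array 1 and the uninephrectomy array, 0.260 between array 2 and the uninephrectomy array and 0.321 between the cardio-renal arrays. Summed signals of 8 male-biased kidney genes were 36557 on array 1 and 94627 on array 2, against 86163 with uninephrectomy alone. Those of 16 heart muscle markers, 10 of which were under the filter, were 3103 and 2463 in the cardio-renal arrays, against 1003 with uninephrectomy alone. Markers of kidney segments gave near-equal sums, with 76164 and 82863 in the cardio-renal arrays against 78655 with uninephrectomy alone for 7 proximal tubule genes and 60243 and 63380 against 62167 for 5 genes of the thick ascending limb. The part of these marker shifts in the results was not tested, and in whole-kidney RNA fewer cells of a type cannot be told apart from less RNA per cell.

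No difference of a signalling component exceeded the error of the fit, and mean log2 differences ran between -0.35 and 0.23 for 10 of the 11 probe sets above the filter, the exception being a Smad7 probe set at 1.13 that array 1 alone set. Of the 23 probe sets, 11 from 8 genes passed the filter, and Tgfb1 had none that did. Of these 11, 3 lay above the uninephrectomy array on both of the others, where 31.8% of all probe sets tested did, and 2 lay below it in both, where 29.7% did. The remaining 6 lay on opposite sides in the cardio-renal arrays. None of the 11 was at least 2-fold apart in the same direction in both arrays (0.142% of all were higher and 0.0533% lower), and none at least 1.5-fold (0.639% higher and 0.364% lower). In limma's fit across all 22519 probe sets the Benjamini-Hochberg adjusted p was 0.9998 for each of the 11, 0 probe sets passed in the whole table (0%), and 627 had an unadjusted p under 0.05 (2.78%), none of them among the 11. The 95% interval of the limma difference lay within 2-fold either way for 10 of the 11 and within 1.5-fold for 4. The median difference of the 11 was 0.10 in array 1 and -0.01 in array 2, against 0.02 and -0.01 over all probe sets tested. Both differences are taken against the same uninephrectomy array, so that array alone can set a shared direction.

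**Figure D1:**
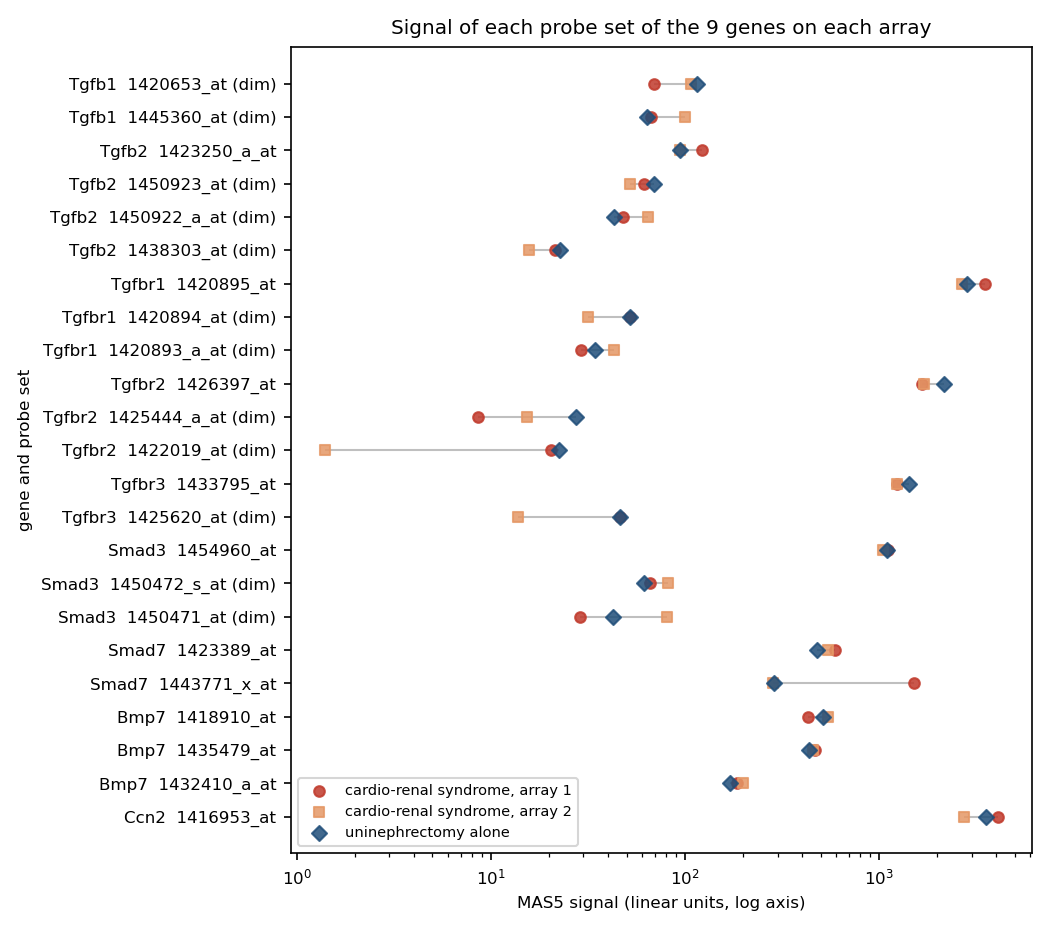
MAS5 signal (log axis) of all 23 probe sets of the 9 genes on cardio-renal array 1 (circles), cardio-renal array 2 (squares) and the uninephrectomy array (diamonds); grey lines join the lowest and highest array, and probe sets under the filter are marked dim. Most brighter probe sets have their 3 arrays close together, except the Smad7 probe set 1443771_x_at, at 1505 on array 1 against 289 with uninephrectomy alone.

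Among the ligands, Tgfb1, the founding member of the family, had both probe sets under the filter, which lies at the median of all probe sets. Its probe set 1420653_at had signals of 69.4 and 107 in the cardio-renal arrays, against 115 with uninephrectomy alone, and its mean log2 level of 6.96 fell just short of the filter at 7.01. Its second probe set, 1445360_at, had 66.7 and 99.8 in the cardio-renal arrays and 63.7 with uninephrectomy alone. The 2 probe sets thus disagreed in direction, with both cardio-renal arrays below the uninephrectomy array in the first and above it in the second. Tgfb2, the isoform that depends most on betaglycan for receptor binding, had 4 probe sets, of which 1423250_a_at alone passed the filter, at a mean log2 level of 7.04. It had signals of 122 and 93.8 in the cardio-renal arrays, against 93.8 with uninephrectomy alone, so only array 1 stood apart, by 0.30. The 3 dimmer Tgfb2 probe sets had signals between 15.8 and 64.5 in the cardio-renal arrays and between 22.8 and 69.0 with uninephrectomy alone. No direction can be given for either TGF-beta ligand gene at these signals.

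Bmp7 was the one ligand gene with all of its probe sets above the filter. Probe set 1418910_at had signals of 431 and 543 in the cardio-renal arrays, against 517 with uninephrectomy alone. Probe set 1435479_at had 466 and 458 in the cardio-renal arrays, against 434 with uninephrectomy alone. Probe set 1432410_a_at had 185 and 199 in the cardio-renal arrays, against 172 with uninephrectomy alone. In the last 2 both cardio-renal arrays lay above the uninephrectomy array, and in the first they straddled it. Mean log2 differences were -0.09 ± 0.22, 0.08 ± 0.02 and 0.14 ± 0.06 in the same order (SD, n = 2), and the limma 95% intervals reached no lower than -0.59 and no higher than 0.69. The data therefore hold no Bmp7 difference that exceeds the error of the fit. A change beyond 2-fold lies outside the intervals, but their spread comes from the cardio-renal arrays alone, so they do not bound a change between the groups.

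Of the member receptor genes Tgfbr1, Tgfbr2 and Tgfbr3, Tgfbr2 had the largest difference shared by both cardio-renal arrays among probe sets above the filter. Its bright probe set 1426397_at had signals of 1668 and 1699 in the cardio-renal arrays, against 2153 with uninephrectomy alone. The cardio-renal arrays were nearly equal and both lay below the uninephrectomy array, with a mean log2 difference of -0.35 ± 0.02 (SD, n = 2). The limma interval was -0.72 to 0.03, the unadjusted limma p was 0.0638 and the adjusted p was 0.9998. Of all probe sets tested, 2.01% lay at least as far below on both cardio-renal arrays. The other Tgfbr2 probe sets, 1425444_a_at with 8.54 and 15.4 in the cardio-renal arrays against 27.3 with uninephrectomy alone and 1422019_at with 20.5 and 1.39 against 22.5, had signals under the offset on every array, so no direction can be read from them. Summed signals of 8 macrophage markers were also lower, at 5948 and 6559 in the cardio-renal arrays against 7233 with uninephrectomy alone. Of the 8 genes, 6 were lower in both arrays, where 29.8% of all genes were. The other 2 were higher in both, where 30.6% of all genes were. Endothelial markers had sums of 6919 and 6162 in the cardio-renal arrays, against 6459 with uninephrectomy alone. Those of fibroblast, pericyte and smooth muscle markers were 10211 and 8046, against 9638. Both of these sums lay above on array 1 and below on array 2. The part of macrophages or of these other cells in the Tgfbr2 difference was not tested.

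The promoter of Tgfbr2 is shown because this was the member with the largest shared difference among those above the filter. The window runs from 250 bases before to 50 after the RefSeq transcription start (GRCm38.p6, chr9:116175314-116175613, minus strand), and capitals mark a match to the short SMAD box CAGAC.
Tgfbr2: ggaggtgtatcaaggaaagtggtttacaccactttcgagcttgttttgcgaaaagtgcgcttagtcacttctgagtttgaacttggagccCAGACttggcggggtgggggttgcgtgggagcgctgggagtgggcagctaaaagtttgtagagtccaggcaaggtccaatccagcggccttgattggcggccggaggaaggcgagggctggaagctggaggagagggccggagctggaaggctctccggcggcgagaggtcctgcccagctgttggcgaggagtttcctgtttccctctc
Each window was searched on both strands for CAGAC, for the TEAD motif CATTCC, for the AP-1 motif TGANTCA, where N is any base, and for the TATA box TATAAA. The letters CAGAC, or their complement, occurred in 49.6% of 32851 promoter windows of this length, CATTCC in 14.7%, TGANTCA in 7.81% and TATAAA in 13.6%. The Tgfbr2 window held 1 CAGAC match and none of the others. Windows were at hand for 5 of the 9 genes; that of Tgfb2 held 2 CAGAC matches and a TATAAA, 1 of the 2 windows of Tgfbr1 held 1 CAGAC match and the other none of the 4 motifs, and those of Tgfb1 and Smad3 held no match to any of the 4 motifs. Such matches describe the letters only.

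Tgfbr3 and Tgfbr1 completed the receptors. The Tgfbr3 probe set 1433795_at had signals of 1238 and 1239 in the cardio-renal arrays, against 1419 with uninephrectomy alone. Both cardio-renal arrays lay below, by 0.19 each, and 6.58% of all probe sets tested lay at least as far below in both. The limma interval, -0.58 to 0.19, spans 0. The dimmer Tgfbr3 probe set 1425620_at had 46.4 and 13.7 in the cardio-renal arrays, against 46.4 with uninephrectomy alone, so only array 2 was lower there. The Tgfbr1 probe set 1420895_at had signals of 3531 and 2681 in the cardio-renal arrays, against 2843 with uninephrectomy alone. Array 1 was above and array 2 below, for a mean difference of 0.11 ± 0.28 (SD, n = 2). The other 2 Tgfbr1 probe sets had signals of 29.3 to 52.3 in the cardio-renal arrays, against 34.3 and 52.2 with uninephrectomy alone.

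**Figure D2:**
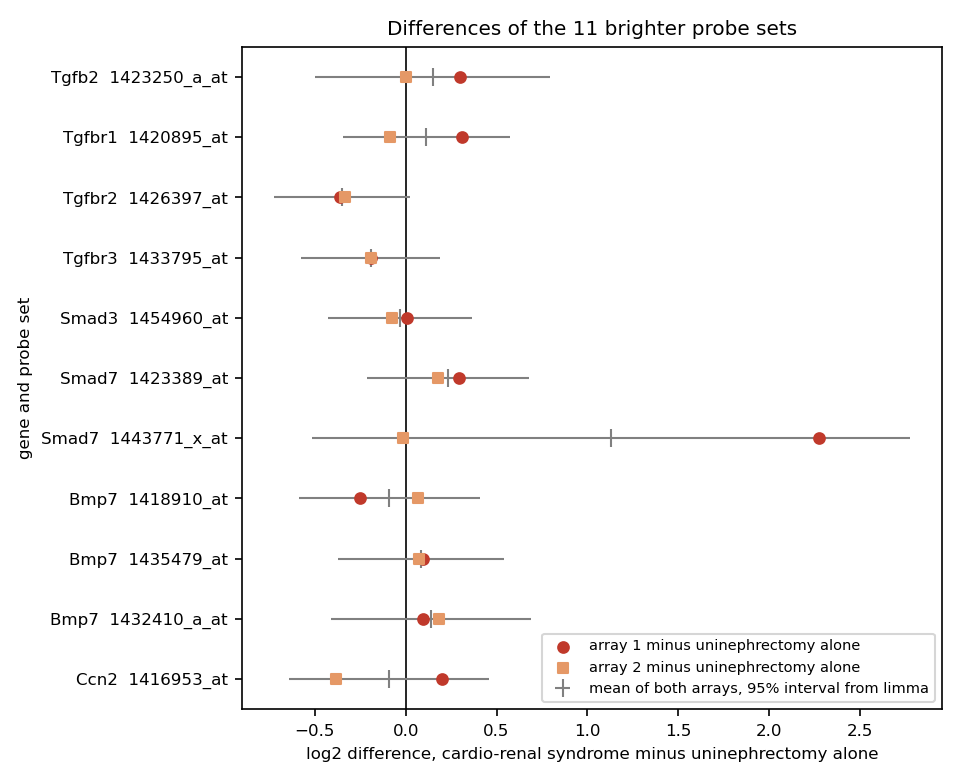
Log2 difference from the uninephrectomy array of cardio-renal array 1 (circles) and array 2 (squares) for the 11 probe sets above the filter; grey ticks and bars are the mean and its 95% interval from limma. Every interval spans 0; Tgfbr2 comes nearest to clearing it, from -0.72 to 0.03, and the Smad7 probe set 1443771_x_at has the widest.

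Smad3 had the smallest mean difference of the 11 probe sets. Its bright probe set 1454960_at had signals of 1109.5 and 1047 in the cardio-renal arrays, against 1103 with uninephrectomy alone. The arrays overlapped, with a mean difference of -0.03 ± 0.06 (SD, n = 2) and a limma interval of -0.43 to 0.36. Its dim probe set 1450472_s_at had 66.3 and 81.8 in the cardio-renal arrays, against 61.7 with uninephrectomy alone, and the dimmest, 1450471_at, had 28.7 and 80.8, against 42.6. Both cardio-renal arrays were above in one and on opposite sides in the other.

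The 2 probe sets of Smad7, the inhibitory SMAD, differed. Probe set 1423389_at had signals of 595 and 547 in the cardio-renal arrays, against 481 with uninephrectomy alone. Both cardio-renal arrays lay above, by 0.29 and 0.18, with a limma interval of -0.21 to 0.68. Of all probe sets tested, 10.04% lay at least as far above in both. Probe set 1443771_x_at, whose suffix marks probes that may hybridise to more than 1 transcript, had signals of 1505 and 286 in the cardio-renal arrays, against 289 with uninephrectomy alone. Its mean difference was 1.13 ± 1.62 (SD, n = 2; limma interval -0.52 to 2.78). Array 1 alone was high, 5.21 times the uninephrectomy array and 5.27 times array 2, and without array 1 the difference was -0.01. At least 4-fold higher signals than both other arrays were found for 14 of all probe sets tested on array 1 (0.0622%), for 0 on array 2 and for 1 on the uninephrectomy array. The high value on array 1 was thus not shared by the other Smad7 probe set, and whether probe set 1443771_x_at reads Smad7 there was not tested.

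Ccn2 was measured by 1 probe set, 1416953_at, with signals of 4116 and 2734 in the cardio-renal arrays, against 3574 with uninephrectomy alone. Array 1 lay above and array 2 below the uninephrectomy array, by 0.20 and -0.38, and the gap of 0.59 between the cardio-renal arrays was larger than either difference from uninephrectomy alone. The mean difference was -0.09 ± 0.41 (SD, n = 2; limma interval -0.64 to 0.46), so no direction can be given for Ccn2. Its close relative Ccn1, another secreted matricellular protein gene and the member of the CCN list that the naming rule picked, had signals of 778 and 672 in the cardio-renal arrays, against 2391 with uninephrectomy alone, on probe set 1416039_x_at. Each of its other 3 probe sets was below in both, with mean differences of -1.17, -1.32 and -1.30 beside -1.69 ± 0.14 for the first (SD, n = 2). The unadjusted limma p of the first probe set was 1.2e-05 and the adjusted p 0.113, at the lowest value in the table, so Ccn1 did not pass either. Among the other CCN genes, Ccn4 had 171 and 80.6 in the cardio-renal arrays against 154 with uninephrectomy alone, and Ccn3, Ccn5 and Ccn6 were under the filter.

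The promoter window of Ccn1 (GRCm38.p6, chr3:145649936-145650235, minus strand) is printed for comparison with that of Tgfbr2, since Ccn1 had the largest shared difference among the other genes of the pathway. Capitals mark 1 CATTCC, 1 TATAAA and 1 CAGAC.
Ccn1: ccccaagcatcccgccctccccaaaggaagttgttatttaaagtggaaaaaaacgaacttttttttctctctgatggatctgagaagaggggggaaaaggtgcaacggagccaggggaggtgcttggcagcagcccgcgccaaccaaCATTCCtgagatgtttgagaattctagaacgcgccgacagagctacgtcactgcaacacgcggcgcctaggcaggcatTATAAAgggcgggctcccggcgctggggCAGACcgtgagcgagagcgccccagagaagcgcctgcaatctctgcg
The CATTCC match begins 103 bases before the start and the TATAAA match 25 bases before it. No TGANTCA was found in this window.

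The rest of the pathway was read from 10 lists holding 126 genes that are not among the 9, of which 118 had a probe set and 90 passed the filter, each represented by its brightest probe set. Of the 90, 19 lay above the uninephrectomy array on both of the others (21.1%), where 30.6% of all genes did, and 33 lay below it in both (36.7%), where 29.8% did. Their median difference was 0.05 in array 1 and -0.14 in array 2, against 0.01 and -0.003 over all 11146 genes. In limma's fit 7 of the 90 had an unadjusted p under 0.05, as did 2.63% of all genes, and 0 passed adjustment. The lists were drawn up with earlier results of these data known.

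**Figure D3:**
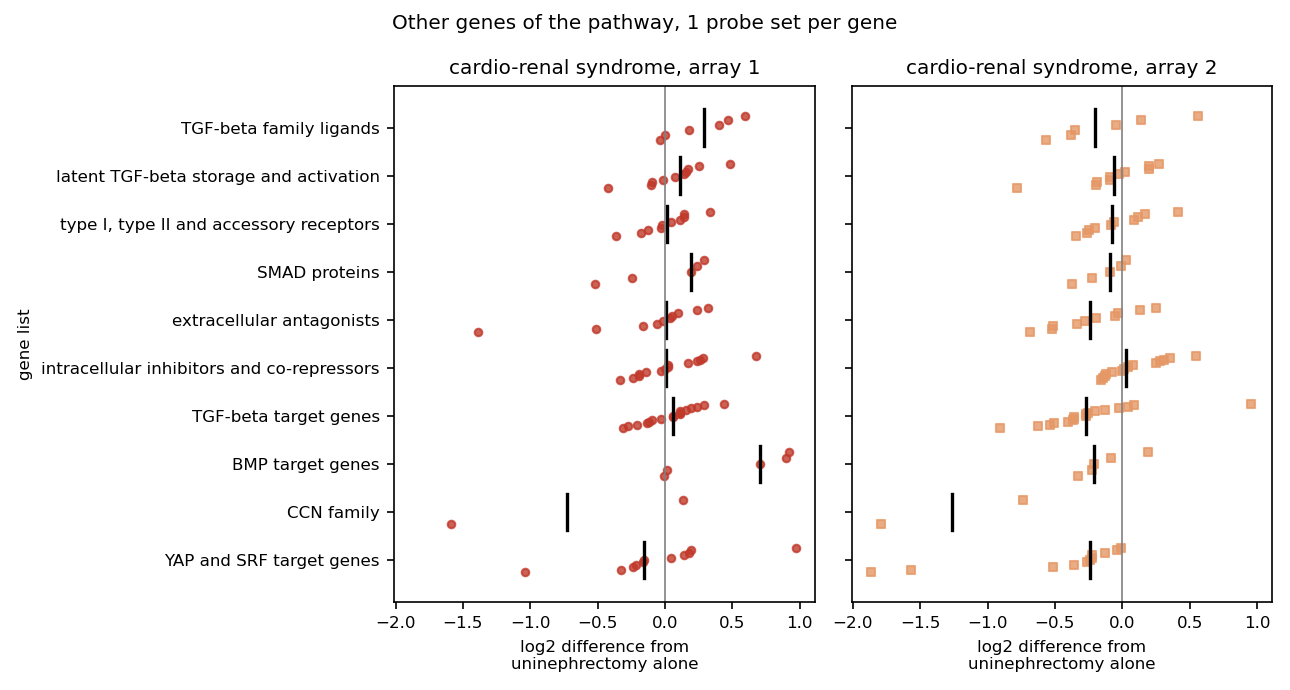
Log2 difference from the uninephrectomy array of each gene above the filter in the 10 pathway lists, in cardio-renal array 1 (left, circles) and array 2 (right, squares); black bars are list medians. The BMP target list has a median of 0.71 in array 1 and -0.21 in array 2, and the TGF-beta target list one of 0.06 and -0.27.

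Among other ligands of the family, 2 of 6 genes lay above in both arrays and 2 below. Bmp4, a ligand that signals through the same SMADs as BMP7, had signals of 565 and 635 in the cardio-renal arrays, against 422 with uninephrectomy alone, a mean difference of 0.48 ± 0.11 (SD, n = 2). Inhbb, an activin subunit gene, stood at 0.47 and 0.14, and its other probe set was also above in both arrays. Bmp6, the iron-regulating BMP, differed by under 0.05 in either array, and Gdf10 stood at -0.04 and -0.35. Of the genes for storage and activation of latent TGF-beta, 2 of 10 lay above in both arrays and 2 below. Itgb6, a subunit of an integrin that releases active TGF-beta from its latent complex, had 860 and 1017 in the cardio-renal arrays, against 1163 with uninephrectomy alone, and its second probe set was lower in both as well. Itgb8 and Ltbp4 lay at 0.08 ± 0.09 and -0.11 ± 0.13 (SD, n = 2). For the latent TGF-beta binding protein gene Ltbp3 the 2 probe sets above the filter disagreed, at 0.26 ± 0.01 and -0.23 ± 0.06 (SD, n = 2), so no direction can be given.

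Other receptors gave 3 of 10 genes above and 4 below. Acvr2a, named after its values were seen, lay on opposite sides on its brightest probe set, at 0.11 and -0.06. Its other probe set above the filter lay at -0.86 and -0.73, so no direction can be given. Bmpr1a, a type I BMP receptor, lay at -0.18 and -0.21 on its brightest probe set, with 2 of its other probe sets also below in both arrays and 2 on opposite sides, and the activin receptor Acvr1b at -0.12 and -0.25. Eng, the endothelial co-receptor endoglin, lay at 0.33 and 0.09 on its brightest probe set but below in both arrays on the other. Acvrl1, an endothelial type I receptor, lay at 0.14 and 0.12 on one probe set and on opposite sides on the other. Of 5 other SMAD genes above the filter, 1 lay above in both arrays and 2 below. Smad2, the partner of Smad3 downstream of TGF-beta, had signals of 554 and 615 in the cardio-renal arrays, against 805 with uninephrectomy alone. That is a mean difference of -0.45 ± 0.10 (SD, n = 2), with an unadjusted limma p of 0.0454 and an adjusted p of 0.9998, whereas its second probe set had 236 and 195 against 214. Smad4, the common partner, had 2444 and 2470 in the cardio-renal arrays, against 2900 with uninephrectomy alone, and both of its other probe sets were lower in both arrays too. Smad5 lay at 0.24 and 0.03 on its brightest probe set, with its other probe sets at 0.33 and 0.16 and at 0.27 and -0.22.

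Extracellular antagonists had 5 of 10 genes below in both arrays and 2 above. Fst, which encodes the activin antagonist follistatin, had signals of 237 and 208 in the cardio-renal arrays, against 351 with uninephrectomy alone, and its second probe set had 130.0 and 126 against 176. The unadjusted limma p of the first was 0.0303 and its adjusted p 0.9998. Chrdl1, a BMP antagonist of the chordin family, had 55.0 and 125 in the cardio-renal arrays, against 191 with uninephrectomy alone. The BMP modulators Kcp and Twsg1 stood at 0.18 ± 0.11 and 0.19 ± 0.07 (SD, n = 2), but 1 of the other Twsg1 probe sets lay at -0.41 and 0.26. Of 14 genes for inhibitors, co-repressors and other regulators of the signal, 7 lay above in both arrays and 5 below. The list is not one of inhibitors alone: Usp11 and Zfyve9, among those above, and Usp15, among those below, are not inhibitors. Bambi, a decoy receptor that dampens TGF-beta signalling, had 309 and 223 in the cardio-renal arrays, against 183 with uninephrectomy alone. The co-repressor genes Tgif1, Tgif2 and Ski stood at 0.39 ± 0.22, 0.32 ± 0.05 and 0.27 ± 0.01 (SD, n = 2), but the second Ski probe set lay below in both arrays, at -0.08 and -0.05.

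TGF-beta target genes were mostly on opposite sides in the cardio-renal arrays, as 11 of the 17 above the filter were, beside 39.6% of all genes. Of these 17 TGF-beta target genes, 10 lay above the uninephrectomy array in array 1 (51.6% of all genes did) and 14 lay below it in array 2 (50.7% of all genes did). Lower in both were 5 of them. Medians above 0 in array 1 and below 0 in array 2 were also found outside the target lists. Other ligands had 0.29 and -0.20. Other SMAD genes had 0.19 and -0.09, but Smad6, itself a BMP target, is on that list and sets its array 1 median. Col3a1, a fibrillar collagen chain, had 2050.3 and 1189 in the cardio-renal arrays, against 2251 with uninephrectomy alone, and its second probe set had 156 and 139 against 151. Fibronectin, Fn1, had 777 and 732 in the cardio-renal arrays, against 946 with uninephrectomy alone, while Postn stood at -0.21 ± 0.004 (SD, n = 2). The 1 gene above in both arrays was Cdkn1a, a cell cycle inhibitor also induced by p53, with 405 and 594 in the cardio-renal arrays against 292 with uninephrectomy alone. Fibroblast, pericyte and smooth muscle markers had summed signals in the same order of arrays as Ccn2, at 10211 on array 1 and 8046 on array 2, against 9638 with uninephrectomy alone, over 10 genes of which Acta2 and Col1a1 are also on the target list. The genes behind these sums did not share 1 order: 3 of the 10 (Rgs5, Myh11 and Cnn1, the last under the filter) lay above in both arrays, 3 (Pdgfrb, Dcn and Des) below in both, and 4, Pdgfra among them, above on array 1 and below on array 2. The part of these cells in the target genes and in Ccn2 was not tested.

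BMP target genes were split as well, with 3 of 5 on opposite sides, beside 39.6% of all genes. All 5 that passed the filter are named here, of which Id1, Id2 and Id3 were added after their values were seen. Id1, a helix-loop-helix inhibitor induced by BMP, had signals of 1874 and 855 in the cardio-renal arrays, against 992 with uninephrectomy alone. Id3, of the same family, had 1938 and 932 in the cardio-renal arrays, against 1178 with uninephrectomy alone. Both were higher on array 1 and lower on array 2. Id4 had 2860 and 1715 in the cardio-renal arrays, against 1498 with uninephrectomy alone, and its 3 probe sets were all highest on array 1. On the dimmest of them, 1423260_at, array 2 lay below the uninephrectomy array, at 491 against 532. Id2 and Gata3 stood at 0.02 and -0.22 and at -0.01 and -0.09. Of the other 2 Id2 probe sets, 1 lay below in both arrays, at -0.22 and -0.28, and 1 on opposite sides. Endothelial cells are known for active Id1 and Id3. Their summed markers, over 8 genes, were 6919 on array 1 and 6162 on array 2, against 6459 with uninephrectomy alone. Of these genes, 2 (Pecam1 and Tek) lay above in both arrays, 1 (Kdr) below in both and 5 on opposite sides. Podocyte markers had sums in the same order, at 2587 on array 1 and 2353 on array 2, against 2450 with uninephrectomy alone. The part of either cell type in the Id signals was not tested. The inhibitory Smad6, another BMP target, had 456 and 394 in the cardio-renal arrays, against 396 with uninephrectomy alone.

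**Figure D4:**
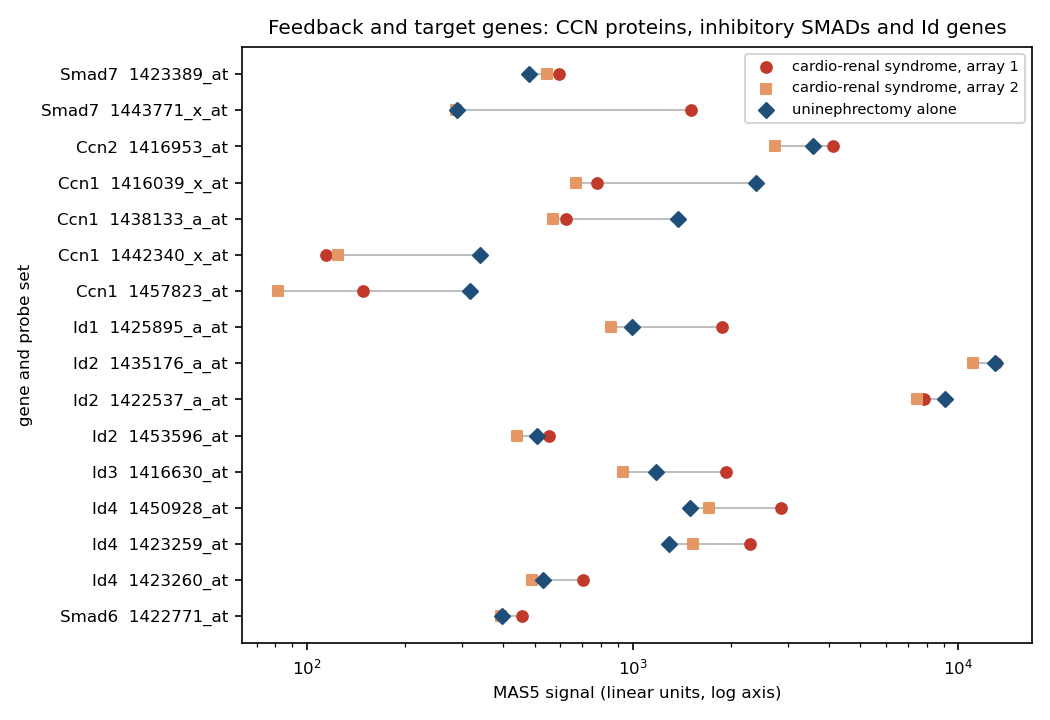
MAS5 signal (log axis) of the probe sets above the filter of Smad7, Ccn2, Ccn1, Id1, Id2, Id3, Id4 and Smad6 on cardio-renal array 1 (circles), array 2 (squares) and the uninephrectomy array (diamonds). All 4 Ccn1 probe sets have both cardio-renal arrays below the uninephrectomy array, whereas Ccn2, Id1 and Id3 have array 1 above and array 2 below it.

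The list of YAP and SRF target genes, to which Ccn1 and Ccn2 also respond, had 6 of 11 genes below in both arrays, where 29.8% of all genes were, and 0 above, where 30.6% were. Array 2 set this side: all 11 lay below in array 2 (50.7% of all genes did), but 5 lay above and 6 below in array 1. Amotl2, counted as below in both, lay at -0.16 and -0.007. The immediate early gene Fos had signals of 260.1 and 171 in the cardio-renal arrays, against 564 with uninephrectomy alone. Its mean difference was -1.30 ± 0.38 (SD, n = 2), with an unadjusted limma p of 0.00122 and an adjusted p of 0.9998. Egr1, another immediate early gene, had 1420.3 and 433 in the cardio-renal arrays, against 1655 with uninephrectomy alone, so array 2 lay far below and array 1 close by. Tpm1, a tropomyosin gene, and Axl, a receptor kinase gene, stood at -0.28 ± 0.06 and -0.21 ± 0.07 (SD, n = 2).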

How the data were processed

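Kidney RNA of 3 samples was measured on 1 single-colour array each. Per the labels' protocols, biotin-labelled cRNA was made from 250 ng of total RNA. The deposited values are intensities, MAS5 signals (linear scale; tool named per the submitters' processing notes, with no version in the sources used here). Each array's mean, trimmed by 2% at each end, was 500, so no scaling was added. The values carry no detection calls, and MAS5 is noisy at low signal.

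Probe sets were named from the platform annotation: 34958 had 1 symbol, 932 several, 9147 were unnamed here and 64 were controls, which were left out. Values became log2(signal + 28.8), where the offset is the median of the arrays' 25th percentiles. A probe set was kept when its mean reached 7.01, the median of all. limma 3.58.1 in R 4.3.3 (lmFit, eBayes with a trend, two-sided, Benjamini-Hochberg at 0.05) was fitted to all 22519 kept probe sets with 1 residual degree of freedom, so the spread of the cardio-renal pair stands in for that of the lone uninephrectomy sample. Nothing says that arrays are separate animals, so the p-values cover only the spread among these samples, which may be technical, and the number of arrays limits the precision. A run on simulated data, with the same noise on every array, checked only that added differences were recovered in size and sign. It cannot show whether a lone uninephrectomy array stands for its group.

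The members and lists were chosen with earlier results of these data known. All members are given; each list names up to 4 genes on 1 side in both arrays, ranked by the smaller difference. Promoter windows are from RefSeq, GRCm38.p6. Alternatives were other offsets, no filter, quantile normalization, 1 probe set per gene, no shared-sequence probe sets, other moderation and leaving out a cardio-renal array.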

Additional observations from a re-analysis of the deposited data

How the results depend on the processing

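None of the mean differences of the 11 member probe sets changed sign under the alternatives with a test, and the Tgfbr2 difference lay between -0.35 and -0.33 in all 6 of them (adjusted limma p from 0.9998 to 1). Without 1 of the cardio-renal arrays, which leaves no test, 6 of the 11 changed sign, namely the 6 with arrays on opposite sides; Ccn2, for example, lay at 0.20 without array 2 and Tgfbr1 at -0.08 without array 1. Member probe sets above on both cardio-renal arrays numbered 6 with no filter and 1 with 1 probe set per gene, and from 4 to 8 without a cardio-renal array; those below numbered 7 with no filter and from 3 to 7 without an array. Pathway genes above numbered from 25 (without array 1) to 51 (without array 2) and genes below from 39 (without array 2) to 65 (without array 1). Without shared-sequence probe sets limma called 3 probe sets higher, none of a member: Actc1, Myh6 and the unnamed 1460710_at, listed after their values were seen. Over the whole table, the counts at least 2-fold higher and lower (32 and 12) became 13 and 5 with 4 times the offset, 190 and 60 with no filter, and 15 and 6 with 1 probe set per gene; without shared-sequence probe sets 5 were lower. Without an array they ranged from 60 to 110 and from 47 to 119. The counts at least 1.5-fold higher and lower (144 and 82) became 57 and 43 with 4 times the offset, 1046 and 688 with no filter, and 57 and 39 with 1 probe set per gene; without shared-sequence probe sets 54 were lower. Without an array they ranged from 351 to 680 and from 436 to 484. No filter, 1 probe set per gene and no shared-sequence probe sets change how many are counted. Without a cardio-renal array the rule asks for a difference on the remaining array only, so a count can only rise. A larger offset shrinks each log2 difference. Any further part in these shifts was not tested. No paired analysis was possible because the uninephrectomy alone group has 1 array and the labels carry no replicate numbers. Signals under or just above the filter limit Tgfb1 and Tgfb2.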
